A study of Mus musculus with 6 samples.

Results

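The genes described here are 48 members of the Wnt signalling system: 12 Wnt ligands, 15 receptors and co-receptors, 10 antagonists, 3 R-spondins, and 8 targets or feedback inhibitors. They were chosen by name, with earlier results of these data known, and all 48 were found among the 22180 genes that the arrays name. Each is read from its probe set with 1 gene symbol and the highest mean over the 6 arrays. RNA came from primary lung fibroblasts of wild-type male C57BL/6 mice aged 8 weeks, passaged at most 3 times in medium with 10% serum. Wells received vehicle (3 wells) or purmorphamine (3 wells), an agonist of Smoothened and so of the Hedgehog pathway, for 24 h; its dose is written 5um in the labels and read here as 5 µM. The labels tell neither the vehicle's composition nor how many mice gave the cells. The p-values here thus reflect variation between these wells, which may be technical alone, and whether it includes variation between mice is unknown.

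Wnt ligands are lipid-modified secreted proteins that bind Frizzled receptors. With the co-receptors Lrp5 or Lrp6 they stabilise beta-catenin, which then activates Tcf and Lef transcription factors; with Ror or Ryk they act through routes that do not need beta-catenin. R-spondins bind Lgr receptors and remove the ubiquitin ligases Rnf43 and Znrf3, which otherwise clear Frizzled from the cell surface. Lung mesenchyme is a known source of Wnt ligands and R-spondins for neighbouring epithelium.

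The 6 arrays had median log2 values of 6.34 to 6.39. On the second principal component (13.2% of the variance) replicate 3 of each group lay apart from the other 4 arrays, at 9.56 and 13.55 against -6.88 to -3.06. Fibroblast markers were present, with per-array means over 12 genes of 9.86 to 9.97 in vehicle and 10.23 to 10.30 in purmorphamine, and 9 of the 12 rose and 1 fell (median difference 0.44). Leukocyte markers were present too: 14 genes averaged 11.10 to 11.14 in vehicle and 10.79 to 10.86 in purmorphamine, and 1 rose and 6 fell. Their median difference was -0.07, with 7 differences positive and 7 negative. Of 8 endothelial markers 4 rose (list means 8.32 to 8.35 against 8.54 to 8.59). Of 7 smooth muscle and pericyte markers 2 rose and 4 fell (9.71 to 9.73 against 9.78 to 9.83). The median difference of these 7 was -0.19 although their list means were higher, and their largest rise was 1.22. Of 10 epithelial markers 1 rose (7.56 to 7.64 against 7.54 to 7.60), with Scgb1a1 and Nkx2-1 near background, and of 6 mesothelial markers none was called (8.03 to 8.12 against 8.07 to 8.08). Over all genes tested 7.18% rose and 7.16% fell, with calls made as defined below. The part of any cell type in the Wnt results was not tested. In whole cultures fewer cells of a type and less RNA per cell cannot be told apart.

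The R-spondin gene Rspo3 rose 2.04-fold with purmorphamine, by far more than any other of the 48 genes. Smaller rises, 1.18-fold to 1.41-fold, were those of the receptor genes Fzd1, Fzd3 and Ror2, the antagonist genes Dkk2, Dkk3 and Frzb, and the ligand gene Wnt11. The co-receptor gene Lrp5 fell 1.17-fold. None of the 8 targets and feedback inhibitors, Axin2 and Lef1 among them, passed the test. In all, 8 of the 48 genes rose (16.7%, against 7.18% of all genes tested) and 1 fell (2.08%, against 7.16%), with limma and a Benjamini-Hochberg adjusted p under 0.05 over all genes. In either direction 9 genes were called (18.8%, against 14.3%), but among genes that were not dim, as defined below, the shares were close: 9 of 42 (21.4%) against 22.4% of all such genes. The median difference was 0.05 over the 48 genes and -0.01 over all genes. Of the 48 genes 1 was both called and changed by at least 1.5-fold (2.08%, against 2.37% of all genes). Because earlier results were known when the genes were chosen, these shares describe the genes and test nothing.

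A gene is called dim here where its mean lies under 6.37, the median of all deposited values. Odorant, vomeronasal and taste receptor genes, which fibroblasts are not known to use, had a 95th percentile of 6.18, and a gene under it is called near background. Of the 48 genes 42 were not dim, and 8 of these 42 rose (19.0%), against 11.4% of all genes that were not dim. The 6 dim genes were Wnt6, Fzd10, Dkk1, Sfrp2, Sfrp4 and Sfrp5, and all but Wnt6 were near background. None of these 6 was called, against 2.59% of all dim genes. In 17 of the 48 genes (35.4%, against 34.2% of all genes tested) the groups did not overlap at all; 13 of these had every purmorphamine value higher (17.1% of all genes did) and 4 had every one lower (likewise 17.1%).

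Leaving out 1 array at a time, which lowers the number of samples, gave 4 to 7 calls among the 48 genes. The fewest, 4, came without vehicle replicate 3, and 5 came in the absence of vehicle replicate 2, purmorphamine replicate 1 or purmorphamine replicate 3. Rspo3, Fzd1, Dkk3 and Frzb passed in all 6 of these cases. Without replicate 3 of both groups, which leaves 2 arrays per group, all 9 kept their direction and 1, Rspo3, passed (adjusted p = 0.0115); the others had adjusted p from 0.0658 to 0.224.

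**Figure D1:**
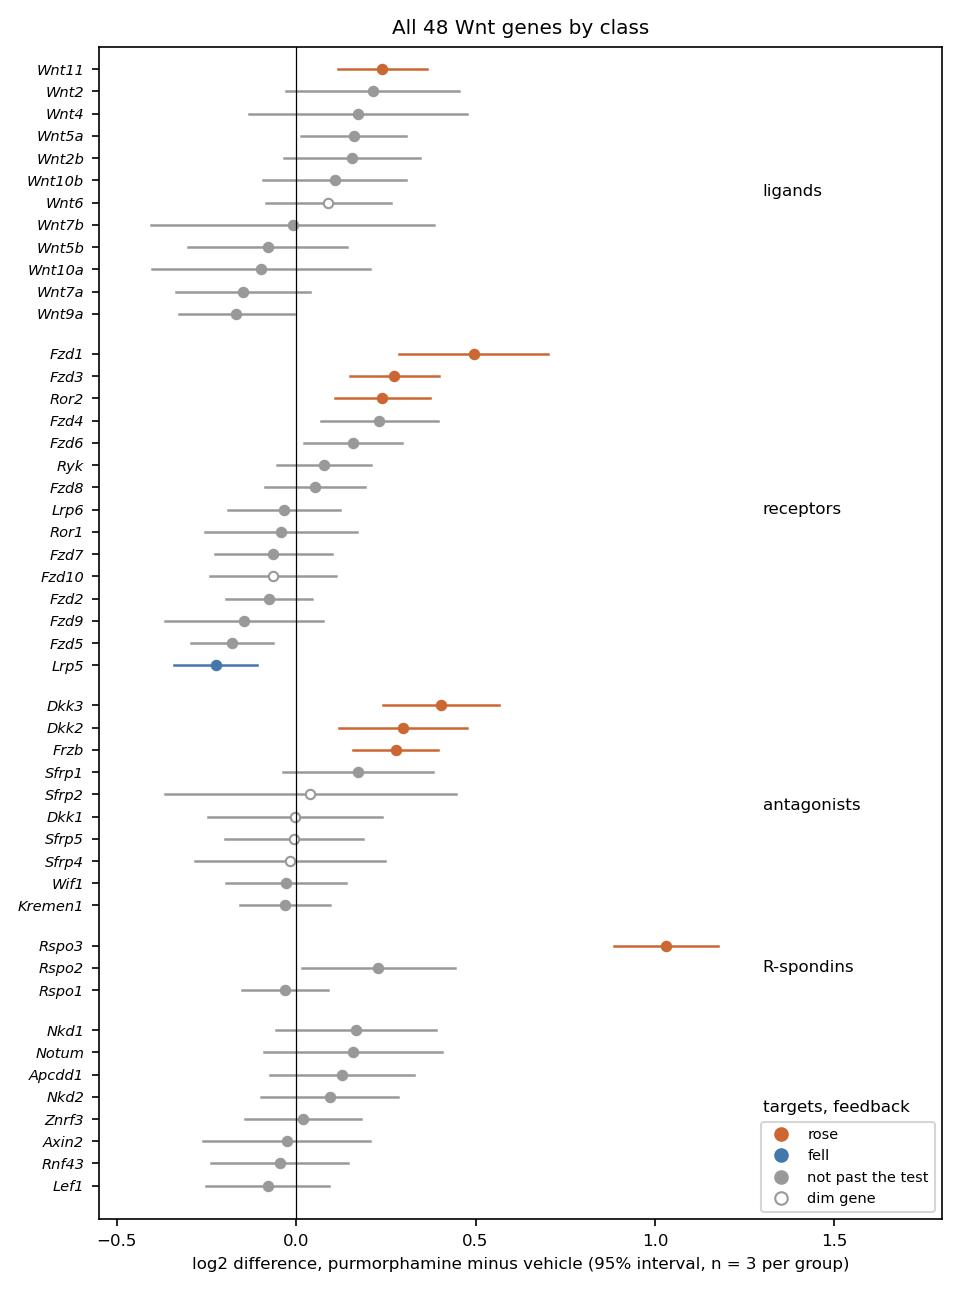
Fitted log2 difference (purmorphamine minus vehicle, horizontal axis) of all 48 Wnt genes, grouped by class, with 95% intervals from limma (n = 3 per group). Orange marks genes that rose, blue the 1 gene that fell, grey genes not past the test and open circles dim genes; Rspo3 at 1.03 stands clear of all others, which lie between -0.22 and 0.49.

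R-spondins were described by 3 genes, and none was dim. Rspo3 read 9.20, 9.04 and 9.04 on the log2 scale in the vehicle arrays and 10.12, 10.13 and 10.12 in the purmorphamine arrays. Every purmorphamine array was higher than every vehicle array, and the purmorphamine wells hardly differed among themselves (SD 0.003, against 0.09 in vehicle). The difference was 1.03 (SE 0.06, 95% interval 0.88 to 1.17, n = 3 per group, limma adjusted p = 0.000183), which placed Rspo3 31st among the 1593 genes that rose. Leaving out any 1 array, the difference was at most 1.08, with adjusted p from 0.00071 to 0.00219.

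The related gene Rspo2, a mesenchymal signal needed for limb and lung development, read 6.65, 6.66 and 6.58 with vehicle and 6.81, 6.71 and 7.05 with purmorphamine. All 3 purmorphamine values were higher, led by replicate 3, but the difference of 0.23 (95% interval 0.02 to 0.44) did not pass (adjusted p = 0.151). Rspo1, with 7.31, 7.32 and 7.36 against 7.34, 7.30 and 7.26, overlapped between the groups, and its interval of -0.15 to 0.09 lies under a 1.5-fold change, which is 0.58. Of the R-spondin receptors outside the 48 genes, Lgr4 differed by -0.05 (adjusted p = 0.658) and Lgr5 was near background. Lgr6 rose by 0.33 (adjusted p = 0.0252), from 7.98, 7.84 and 8.08 to 8.25, 8.32 and 8.33. That call was kept without vehicle replicate 3 and lost without any 1 of the other 5 arrays (adjusted p up to 0.0812).

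Among Frizzled receptors, Fzd1 showed the largest rise. It read 9.34, 9.03 and 9.20 with vehicle and 9.66, 9.62 and 9.78 with purmorphamine, so the groups stood apart although the vehicle wells spread more (SD 0.15, against 0.08 with purmorphamine). The difference was 0.49 (SE 0.09, 95% interval 0.29 to 0.70, limma adjusted p = 0.0115). Fzd3, best known from axon guidance and planar cell polarity, read 7.40, 7.40 and 7.33 and then 7.61, 7.65 and 7.69. It rose by 0.27 (SE 0.05, adjusted p = 0.0153) with little spread in either group. Its call was lost without vehicle replicate 3 (adjusted p = 0.0552) or purmorphamine replicate 3 (0.0555).

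Fzd4, Fzd6, Fzd5 and Fzd2 had groups that did not overlap, yet did not pass. Fzd4, the receptor for Norrin as well as for Wnts, read 9.58, 9.67 and 9.60 against 9.97, 9.78 and 9.80, a difference of 0.23 (adjusted p = 0.0695). Fzd6, a polarity receptor, read 8.92, 9.00 and 9.02 against 9.17, 9.08 and 9.16, a difference of 0.16 (adjusted p = 0.122). For Fzd5 the values were lower with purmorphamine, 8.52, 8.55 and 8.53 against 8.37, 8.37 and 8.32, and the difference of -0.18 missed the threshold narrowly (adjusted p = 0.0534). Fzd2 read 7.30, 7.34 and 7.29 against 7.20, 7.27 and 7.24, a difference of -0.08 (adjusted p = 0.392). The first pair of these genes was thus higher and the second pair lower in every purmorphamine array. Fzd7, Fzd8 and Fzd9 overlapped between the groups, with differences of -0.06, 0.05 and -0.14, and Fzd10 was near background.

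The 2 beta-catenin co-receptors differed in their calls. Lrp5 read 9.58, 9.61 and 9.58 with vehicle and 9.34, 9.37 and 9.40 with purmorphamine, so that both groups were tight and every purmorphamine array was lower. It fell by 0.22 (SE 0.05, 95% interval -0.34 to -0.11, adjusted p = 0.0241), but the call was lost without any 1 of the 6 arrays (adjusted p from 0.0533 to 0.0875). Lrp6 read 11.04, 10.95 and 11.03 against 10.98, 10.87 and 11.07, with overlapping groups and a difference of -0.03 (95% interval -0.19 to 0.12). Whether the 2 genes' differences differ was not tested.

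The receptors of the branch without beta-catenin were the kinase-like proteins Ror1, Ror2 and Ryk. Ror2, a receptor for Wnt5a, read 8.74, 8.74 and 8.73 with vehicle and 8.98, 8.90 and 9.04 with purmorphamine. It rose by 0.24 (SE 0.06, adjusted p = 0.0311), and the spread lay almost wholly among the purmorphamine wells. The call was kept without purmorphamine replicate 2 and lost without any 1 of the other 5 arrays (adjusted p from 0.0841 to 0.0971). Ryk was slightly higher in every purmorphamine array, 11.66, 11.53 and 11.55 against 11.49, 11.51 and 11.50, a difference of 0.08 (adjusted p = 0.426), and Ror1 overlapped, with a difference of -0.04.

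**Figure D2:**
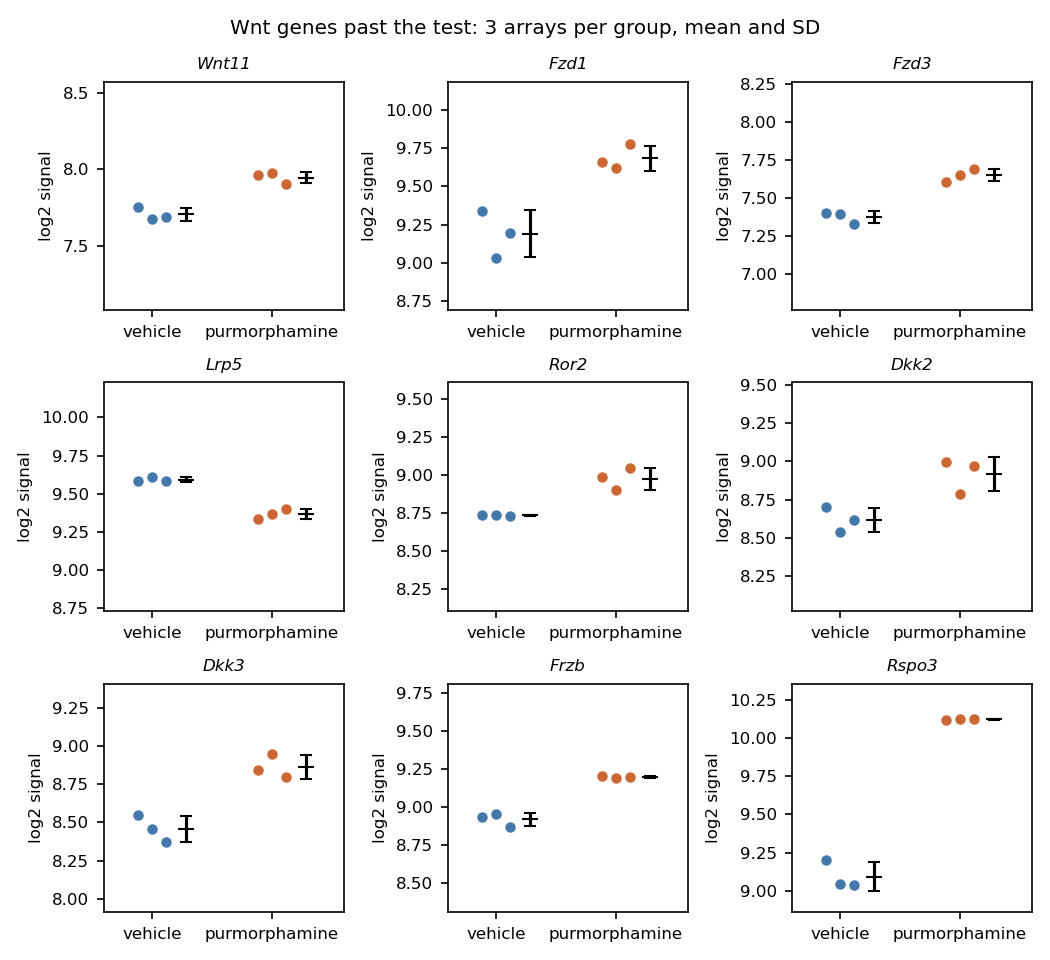
Log2 signal (vertical axis, spanning 1.5 units in every panel) of the 9 Wnt genes past the test in each of the 3 vehicle (blue) and 3 purmorphamine (orange) arrays, with mean and SD in black. The groups do not overlap in any panel, and Lrp5 is the gene whose purmorphamine values lie lower.

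Of the 12 ligand genes, Wnt11 alone passed (8.33%, against 14.3% of all genes). Wnt11, a ligand that mostly acts without beta-catenin, read 7.75, 7.68 and 7.68 with vehicle and 7.96, 7.97 and 7.90 with purmorphamine. Both groups were tight (SD 0.04 each), and the rise was 0.24 (SE 0.05, 95% interval 0.12 to 0.36, adjusted p = 0.0247). The call was lost without vehicle replicate 2 (adjusted p = 0.0839), vehicle replicate 3 (0.0787), purmorphamine replicate 1 (0.0847) or purmorphamine replicate 2 (0.0720).

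Wnt5a, the ligand of Ror2 that shapes distal lung growth, read 8.16, 8.21 and 8.26 against 8.31, 8.34 and 8.46. Its values were higher in every purmorphamine array, but the difference of 0.16 (95% interval 0.01 to 0.31) did not pass (adjusted p = 0.145). Wnt9a lay lower in every purmorphamine array, 7.53, 7.50 and 7.44 against 7.54, 7.67 and 7.75, and its difference of -0.17 did not pass either (adjusted p = 0.163). Wnt2 and Wnt2b, mesenchymal ligands that specify the lung in the embryo, overlapped between the groups, with differences of 0.21 (adjusted p = 0.231) and 0.15 (0.268). Wnt4, Wnt10b and Wnt6 differed by 0.17, 0.11 and 0.09. Wnt5b, Wnt7a, Wnt7b and Wnt10a, of which Wnt7a and Wnt7b are best known from epithelium, differed by -0.15 to -0.01. For the 11 ligand genes not past the test, the 95% intervals together ran from -0.40 to 0.48, limits that apply to array signal. Among them Wnt6 was dim, and Wnt10b (mean 6.49), Wnt2b (6.62) and Wnt7b (6.70) lay little above the dim limit of 6.37.

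Antagonists that bind Wnt ligands or their co-receptors were called in 3 of 10 cases, all as rises (30%, against 7.18% of all genes). Of the 6 that were not dim, 3 rose (50%, against 11.4% of all genes not dim), and the other 4 were near background. Dkk3, a divergent member of the Dickkopf family whose link to Wnt receptors is less settled, read 8.55, 8.45 and 8.37 with vehicle and 8.84, 8.95 and 8.80 with purmorphamine. It rose by 0.40 (SE 0.07, adjusted p = 0.00943), with the lowest purmorphamine array above the highest vehicle array. Dkk2, which binds Lrp5 and Lrp6, read 8.70, 8.54 and 8.62 and then 8.99, 8.79 and 8.97. The Dkk2 groups lay close to each other without overlap, and the rise of 0.30 (SE 0.08, adjusted p = 0.0420) was kept without purmorphamine replicate 2 and lost without any 1 of the other 5 arrays (adjusted p from 0.0608 to 0.130). It was also lost when each array was centred on its median (0.0625).

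Frzb, a soluble relative of the Frizzled receptors that captures Wnt ligands, read 8.93, 8.96 and 8.87 with vehicle and 9.21, 9.19 and 9.20 with purmorphamine. It rose by 0.28 (SE 0.05, 95% interval 0.16 to 0.40, adjusted p = 0.0118), and the purmorphamine wells hardly differed (SD 0.01). Sfrp1, of the same family, read 9.86, 9.60 and 9.84 against 9.99, 10.00 and 9.82. Its groups overlapped through purmorphamine replicate 3, and the difference of 0.17 did not pass (adjusted p = 0.263). Wif1, which binds Wnt ligands, and Kremen1, the membrane partner of Dickkopf proteins, each differed by -0.03. Dkk1, Sfrp2, Sfrp4 and Sfrp5 were near background, with differences of -0.02 to 0.04.

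The 8 genes that beta-catenin is known to induce, or that restrain the pathway in return, showed no call with limma. Of all genes 14.3% were called, and of those not dim 22.4%. Among the 8, 0 had an unadjusted p under 0.05. Over the 48 genes 15 did (31.2%, against 28.2% of all genes and 39.6% of those not dim). Axin2, the most widely used readout of beta-catenin activity, read 7.03, 6.96 and 7.26 with vehicle and 7.10, 6.92 and 7.15 with purmorphamine, with full overlap and a difference of -0.03 (95% interval -0.26 to 0.21, adjusted p = 0.900). Its second, dimmer probe set differed by 0.01. Lef1, both a target and a mediator of the pathway, read 6.75, 6.93 and 6.91 against 6.85, 6.80 and 6.70, a difference of -0.08 (95% interval -0.25 to 0.09). Both genes had overlapping groups, and the Lef1 difference was of the size of its SD (0.10 with vehicle and 0.07 with purmorphamine).

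The ligase genes Rnf43 and Znrf3, which R-spondins counter, differed by -0.05 and 0.02. Nkd2, which binds Dishevelled, read 8.87, 8.58 and 8.73 against 8.87, 8.82 and 8.78, with overlapping groups and a difference of 0.09. Its relative Nkd1 differed by 0.17, Notum, the enzyme that removes the lipid from Wnt ligands, by 0.16, and Apcdd1, a membrane inhibitor, by 0.13. For all 8 the 95% intervals ran from -0.26 to 0.41, and so did not reach a 1.5-fold change in either direction. The same holds for all 39 of the 48 genes that did not pass, whose limits ran from -0.40 to 0.48. All these limits apply to array signal, which can understate a transcript's change, as in the 6 dim genes. Of the 8 genes, Notum (mean 6.54), Rnf43 (6.60) and Nkd1 (6.68) lay little above the dim limit of 6.37.

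The bases before the start sites of genes that rose are shown because purmorphamine acts on a pathway that ends in Gli factors, and Wnt signals end in Tcf and Lef factors. RefSeq promoters (GRCm38.p6) were at hand for 30 of the 48 genes, with 37 start sites, and for 5 of the 9 called genes, with 6. The called genes Rspo3, Dkk3, Fzd3 and Lrp5 had none at hand and were not searched. The 250 bases before each start were searched on both strands for CCACCC, the centre of the Gli binding motif (GGGTGG on the other strand), and for AACAAAG or ATCAAAG or TACAAAG or TTCAAAG, forms of the Tcf and Lef motif. The first lies within the full Gli motif GACCACCCA, which none of the 37 holds (0.225% of all 32851 promoters do). In these stretches, chr7:98834862-98835111 (plus strand, Wnt11), chr2:80447397-80447646 (minus strand, Frzb) and chr3:132085042-132085291 (plus strand, Dkk2), written 5′ to 3′ and ending at the base before the start, capitals mark the matches.
Wnt11: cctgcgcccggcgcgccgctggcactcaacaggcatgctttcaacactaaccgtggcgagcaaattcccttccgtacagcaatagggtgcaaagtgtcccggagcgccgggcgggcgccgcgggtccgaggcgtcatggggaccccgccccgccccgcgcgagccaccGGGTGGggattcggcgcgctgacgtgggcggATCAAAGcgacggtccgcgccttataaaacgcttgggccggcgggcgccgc
Frzb: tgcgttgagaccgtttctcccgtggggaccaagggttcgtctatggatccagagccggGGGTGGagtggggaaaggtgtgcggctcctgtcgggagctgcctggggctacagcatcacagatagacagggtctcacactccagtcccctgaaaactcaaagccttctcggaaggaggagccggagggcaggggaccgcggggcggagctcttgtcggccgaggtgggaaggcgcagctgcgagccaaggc
Dkk2: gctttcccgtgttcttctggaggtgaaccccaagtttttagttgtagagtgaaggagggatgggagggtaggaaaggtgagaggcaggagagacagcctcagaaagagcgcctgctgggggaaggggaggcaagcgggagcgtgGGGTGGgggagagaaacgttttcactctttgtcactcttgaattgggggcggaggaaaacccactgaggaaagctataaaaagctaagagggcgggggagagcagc
Wnt11 holds a Tcf and Lef match starting 51 bases and a CCACCC match starting 82 bases before this start, and neither at its second listed start. Frzb and Dkk2 each hold 1 CCACCC match, starting 192 and 106 bases before the start, and no Tcf or Lef match. Ror2 likewise has 1 CCACCC match, and Fzd1 has neither motif in this window. CCACCC occurs in 20 of the 37 promoters of Wnt genes (54.1%), against 28.1% of all promoters, and the Tcf and Lef forms in 5 (13.5%), against 14.8%. The Wnt promoters were richer in G and C (median 65.2%) than all promoters (52.4%), and all promoters with CCACCC were richer in them (56.8%) than those without (50.4%). The part of base composition in this share was not tested.

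By position, RefSeq gives 17 measured protein-coding genes as direct neighbours of the 9 called genes. Of these 1 rose, Sptlc1 next to Ror2 (0.33, adjusted p = 0.0141), 0 fell, and 16 did not pass. Over all genes 7.18% rose and 7.16% fell. The ligand genes Wnt6 and Wnt10a, which lie next to each other, differed by 0.09 and -0.10, and Kremen1 and Znrf3, also neighbours, by -0.03 and 0.02.

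Other genes of the pathway were counted from 6 lists, written down with earlier results of these data known, with 107 genes measured. Of these 18 rose and 9 fell (25.2% called, against 14.3% of all genes), with a median difference of 0.03. Most of these genes were not dim (92 of 107), and 22.4% of all genes that were not dim were called. With 1 array left out, 15 to 22 were called, with 16 without vehicle replicate 2 and 15 without purmorphamine replicate 1, and 15 of the 27 calls passed in all 6 cases. Some list members are known in other roles as well, so that a call is not specific to Wnt signalling.

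None of the 7 remaining Wnt ligand genes was called, and 4 of them were near background. Wnt9b differed by -0.25 (adjusted p = 0.0800), with groups that did not overlap. Of 21 genes of Wnt secretion and surface modulation, 4 rose and 1 fell (23.8% called, against 14.3% of all genes and 22.4% of those not dim). Besides Lgr6, the rises were those of Ptk7, a polarity co-receptor (0.37, adjusted p = 0.00708), Reck, a membrane partner of Wnt7 signalling (0.36), and the glypican gene Gpc6 (0.31; leaving out 1 array ended this call in 4 of 6 cases, at adjusted p up to 0.0906). Igfbp4, an IGF binding protein that also blocks Wnt receptors, fell by 0.85 (SE 0.07, adjusted p = 0.000633), from 10.13, 10.06 and 10.19 to 9.39, 9.22 and 9.20. Wls, the carrier that brings Wnt ligands to the surface, differed by 0.02.

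Of 22 genes between receptor and beta-catenin, 4 rose and 0 fell (18.2% called, against 14.3% of all genes and 22.4% of those not dim). Dact1, a regulator of Dishevelled, rose by 0.65 (SE 0.07, adjusted p = 0.00124), from 7.16, 7.20 and 7.09 to 7.89, 7.71 and 7.79, and the groups stood well apart. Cxxc5, a negative feedback regulator that binds Dishevelled, rose by 0.50, and Btrc, which marks beta-catenin for degradation, by 0.45. Csnk1g3, a casein kinase, rose by 0.24 and missed the test without any 1 of the 6 arrays (adjusted p from 0.0534 to 0.103). Beta-catenin itself, Ctnnb1, differed by -0.02 (adjusted p = 0.888).

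Nuclear partners moved both ways, with 3 rises and 2 falls among 16 genes (31.2% called, against 14.3% of all genes and 22.4% of those not dim). The acetyltransferase gene Crebbp differed by 0.10 (adjusted p = 0.295). Pygo1, a beta-catenin cofactor, rose by 0.80 (SE 0.13, adjusted p = 0.00813), from 6.52, 6.42 and 6.16 to 7.38, 6.96 and 7.15. Tcf7l2, a main Tcf factor, fell by 0.53 (adjusted p = 0.00186), and the corepressor Tle4 fell by 0.58 (adjusted p = 0.00124). Both had groups that stood apart, with Tcf7l2 at 9.44, 9.50 and 9.47 against 8.90, 9.04 and 8.89. The corepressor gene Tle1 rose by 0.36 and the cofactor gene Bcl9l by 0.35; leaving out 1 array ended these calls in 4 and 5 of 6 cases (adjusted p up to 0.0725 and 0.0961).

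In the polarity and calcium branch 2 of 23 genes rose and 2 fell (17.4% called, against 14.3% of all genes and 22.4% of those not dim). The small GTPase gene Rhoa differed by -0.03. Nfatc2, a calcium-regulated factor also used by leukocytes, fell by 0.59 (adjusted p = 0.000837). Daam1, a formin downstream of Dishevelled, and Vangl1, a core polarity protein, rose by 0.42 and 0.25, and Rac1 fell by 0.21; leaving out 1 array at a time ended each of these 3 calls in 5 of 6 cases (adjusted p up to 0.0844, 0.116 and 0.138). Of 18 other known beta-catenin targets, 5 rose and 4 fell, with a median of -0.03. These calls made up 50%, against 14.3% of all genes and 22.4% of those not dim. Tbx3, a mesenchymal transcription factor, rose by 0.52 (adjusted p = 0.00336) and Vcan, a matrix proteoglycan, by 0.45. The other rises of this list, not named here, were each lost in some fits with 1 array left out (adjusted p up to 0.0804). Ccnd1, the cyclin D1 gene and among the best-known targets, read 11.68, 11.64 and 11.64 with vehicle and 11.15, 11.10 and 11.04 with purmorphamine. It fell by 0.56 (SE 0.05, adjusted p = 0.00106), with groups far apart, and passed with any 1 array left out. Myc, another such target and a growth regulator, fell by 0.29 (adjusted p = 0.0152), from 9.87, 9.97 and 9.89 to 9.60, 9.68 and 9.59. The Myc call was lost without vehicle replicate 2, purmorphamine replicate 1 or purmorphamine replicate 3 (adjusted p up to 0.0591). Birc5, a mitotic survival gene, fell by 0.80 (adjusted p = 0.00116) and the endothelin gene Edn1 by 0.36. Ccnd1, Myc and Birc5 also respond to growth signals outside the Wnt pathway. Results for leukocyte and fibroblast markers are given above, and the part of these cell types in the calls was not tested.

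**Figure D3:**
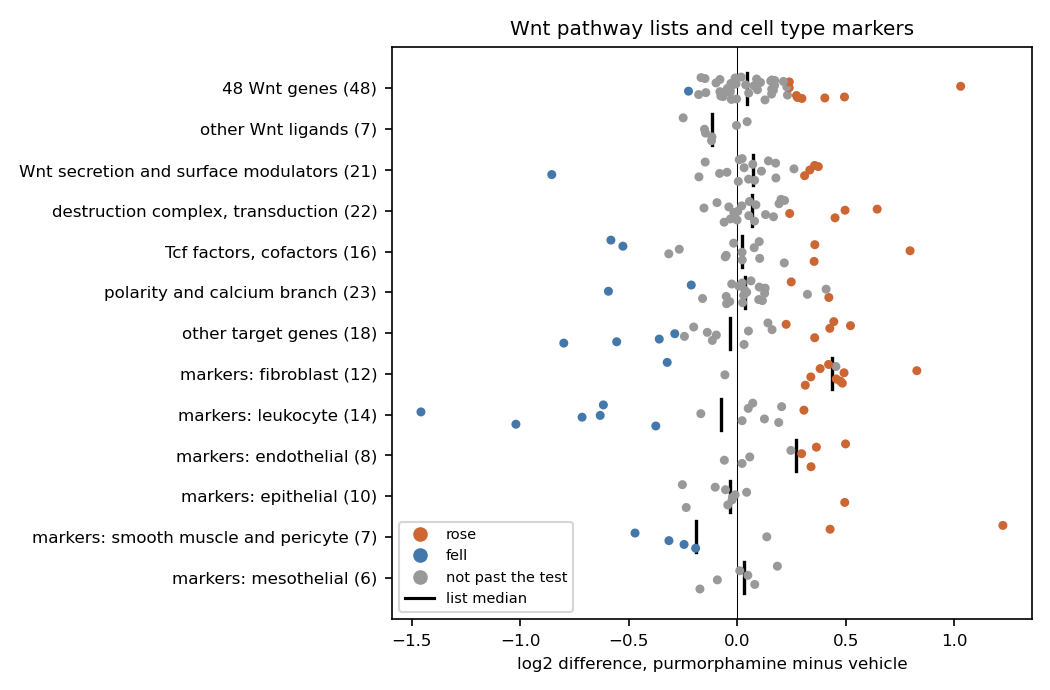
Log2 difference (purmorphamine minus vehicle, horizontal axis) of every measured gene of the 48 Wnt genes, 6 lists of other Wnt pathway genes and 6 lists of cell type markers, with the number measured in brackets. Orange points rose, blue points fell, grey points did not pass the test and black bars are list medians; fibroblast markers have a median of 0.44 against 0.05 for the 48 Wnt genes.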

How the data were processed

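RNA (100 ng a well) was amplified from poly(T) primers and biotinylated for Affymetrix arrays, per the labels' protocols. The authors deposited a single log2 value for each probe set on each array. The submitters' processing notes name RMA, with oligo and limma; no version and no genome build is given in the sources used here. RMA gives all arrays a common distribution, so a change shared by all genes would not be seen, and dim genes are compressed. Precision is limited by having 3 arrays per group; SEs had a median of 0.07. Of 41345 probe sets, 23521 had 1 gene symbol in the platform annotation, 1814 had several and 16010 had none; only the first kind was named. All 48 symbols matched the RefSeq table of GRCm38.p6, used for names, neighbours and promoters.

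Purmorphamine minus vehicle was fitted over 22180 genes in limma 3.58.1 (R 4.3.3; lmFit, then eBayes), without a block or filter, with two-sided p-values adjusted by Benjamini-Hochberg over the whole table and calls at adjusted p under 0.05. Differences and intervals (95%) are on the log2 scale. The members and lists were chosen with earlier results of these data known. Full values are given for members that were called or whose groups did not overlap, and for the member with the highest signal in each class; Axin2, Lef1, Lrp6 and Rspo1 were added after their values were seen, as were several genes of the lists. Of each list of other pathway genes at most 6 called genes with the smallest p are named, and its gene of highest signal. Some listed genes are not analysed here. Alternatives were array centring, quantile normalization, a linear offset of 50, removal of a share of 0.333 of genes, the dimmest, the mean of probe sets, separate probe sets, trend and robust, array weights, the replicate block, leaving out each array, an adjusted p under 0.1 and, added after seeing the data, leaving out replicate 3 of both groups. Data were simulated for this comparison with 22180 genes, of which 200 were changed, and with noise independent between arrays. There the fit recovered 83% of genes changed 2-fold and 61% of those changed 1.41-fold, and 4 of 148 calls were false. In the real data 3181 genes were called and same-numbered arrays deviated together weakly, so these rates need not hold for them. Python 3.11.15 and matplotlib 3.10.9 drew the plots.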

Additional observations from a re-analysis of the deposited data

How the results depend on the processing

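Rspo3 kept its call under every alternative run, with differences of 0.97 to 1.08. The count of called genes among the 48 was 8 to 12 under the scaling, offset, dim filter, probe set, variance and threshold alternatives, and 4 to 7 with 1 array left out; over all genes these left-out fits called 1967 to 2374 and over the other pathway genes 15 to 22. Without replicate 3 of both groups, with 2 arrays a group, 1 of the 48 genes, 15 other pathway genes and 951 of all genes were called. With the replicate number as a block, 5 of the 48 were called, all among the 9; Fzd3 (adjusted p = 0.0516), Wnt11 (0.0587), Lrp5 (0.0645) and Ror2 (0.0679) were not. Same-numbered arrays deviated together weakly (correlations across genes of 0.106, 0.0235 and 0.103); each array correlated best with its own number, a hint from the data, but the labels do not say that numbers pair wells. Fzd4 and Fzd5 passed with the offset, with the dim filter and with trend and robust, and Fzd6 with the offset and with trend and robust (adjusted p from 0.00784 to 0.0477).

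Differences near 0, none past the test in any fit, changed sign. With 1 array left out, Wnt7b ran from -0.12 to 0.17, Wnt10a from -0.23 to 0.013, Fzd10 from -0.13 to 0.0020, Lrp6 from -0.079 to 0.018, Ror1 from -0.11 to 0.032, Dkk1 from -0.065 to 0.11, Sfrp2 from -0.13 to 0.16, Sfrp4 from -0.11 to 0.11, Sfrp5 from -0.049 to 0.066, Wif1 from -0.077 to 0.040, Axin2 from -0.090 to 0.063, Rnf43 from -0.10 to 0.013 and Znrf3 from -0.015 to 0.072. Without replicate 3 of both groups the values were 0.086 for Wnt7b, 0.021 for Fzd7, 0.15 for Dkk1, -0.077 for Sfrp2, 0.025 for Sfrp5, 0.0023 for Rspo1, 0.016 for Axin2 and -0.0032 for Znrf3. Quantile normalization gave Dkk1 0.023, Sfrp4 0.012 and Sfrp5 0.017, array weights gave Wnt7b 0.013 and Dkk1 0.016, and the mean of its probe sets gave Lrp6 0.033. The cause was not tested. Near-background genes bound array values and not transcripts.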
